A study of Mus musculus with 35 samples.

Results

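The amygdala of 2 inbred mouse strains, A/J and C57BL/6J, was compared on the arrays labelled amygdala, 17 of the 35 arrays in the series. They comprised 8 A/J and 9 C57BL/6J arrays, each from 1 adult male of 3 to 4 months that was bred in the laboratory of the study. All mice were unmodified and untreated, so each group stands for 1 inbred genotype, and the tissue was taken as punches from both sides of frozen coronal sections. The other 18 arrays held hippocampus of the same strains, 9 each, and the labels do not tie the regions to animals. Of the 24620 probes, 9064 were detected above the negative control beads (detection p under 0.01) on at least 8 of the 17 amygdala arrays, and these were tested. A probe that only 1 strain detected thus had to be seen on all 8 A/J arrays or on at least 8 of the 9 C57BL/6J arrays. Such a probe passed the filter only through the strain where it was high, so its p-value is not independent of the filter.

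The amygdala is a group of nuclei in the temporal forebrain that assigns threat and reward value to sensory cues. A/J and C57BL/6J mice lie far apart in tests of anxiety-like behavior, and the expression of genes such as Glo1, which detoxifies methylglyoxal, has been studied in relation to this contrast. A bead array reads a transcript through a short probe designed on the C57BL/6J reference, so the signal follows both the abundance of the transcript and its match to the probe. In punched tissue, fewer cells of a type and less RNA per cell cannot be told apart.

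The study listed 15 probes with large strain differences for sequencing, not all of which have a reading. The 7 shown here carry substitutions that fit in a short stretch. Each line gives a stretch of 30 bases of the probe (50 bases long), in the C57BL/6J form, with the base that differs in A/J in capitals. Substitutions are counted from 1 at the 5′ end of the full probe, with the probe base first. They were A29G in Gdi3, A25G and C41T in Enpp5, A32G and G38A in Glrx, C34T in Srp9, C41A and T43G in Abhd16a, G22A in Ndufb10 and G9A in Fcrls. Of the probes not shown, that of Uap1 had 4 substitutions spread too far apart (G15A, T23C, T36C and T47C), that of Psmd8 a deletion and that of Msmo1 an insertion. No difference was found in Chchd4, and no reading is listed for Csrp1, Manbal, Thumpd1 and Supt16. The probe named Supt16 by the platform annotation is listed as Rpgrip1 by the study.
Gdi3: tgcaatgcagtattAatctgacagagcctc
Enpp5: tggatgAgtctagtcctgactcCgtgatga
Glrx: ctctggtctccAgtgagGaggattcattac
Srp9: ctcagtgtggctccCgcctcagactgaatt
Abhd16a: ttgctgtttatagtctggccCgTggggaca
Ndufb10: aagcagaagcagagGatgctggaagaaagg
Fcrls: gcgcaagtGaggatcacatacatgtgcctg

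The arrays differed in depth, here the number of probes detected per array, which was 6549 to 10751 (median 9023) in A/J and 6243 to 11039 (median 7944) in C57BL/6J. The first principal component held 55.8% of the variance. It ran from -48.57 to 46.97 in A/J (median -32.95) and from -44.22 to 60.57 in C57BL/6J (median 42.72). On the second component (11.2%), A/J arrays lay between -34.47 and 2.91 and C57BL/6J arrays between -1.29 and 32.04, so the strains overlapped at their edges. The chips came in 2 sets whose identifiers share their first digits, with 4 A/J and 7 C57BL/6J amygdala arrays in set 1 and 4 and 2 in set 2. Markers of the labelled tissue were present: Isl1 and Tacr1, which mark subpallial and amygdalar neurons, were detected on 17 of 17 amygdala arrays and on 0 of 18 hippocampus arrays. Of the same marker set, Ecel1 was detected on 8 of 18 hippocampus arrays, and Zcchc12 and Gad1 on all 18. Markers of other regions were seen in amygdala too, with hippocampal Prox1 and thalamic Tcf7l2 on 17 of 17 arrays and striatal Drd2 on 15. C1ql2, enriched in the dentate gyrus, had a mean of 7.45 in amygdala and 11.58 in hippocampus arrays (log2, all arrays normalized together). Neurod6 was not detected on any array.

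At an adjusted p under 0.01, 281 of 9064 probes were called (3.10%), of which 91 were higher in A/J (1.0%) and 190 were lower (2.10%). The called probes named 234 different genes, and 42 called probes had no gene symbol. The larger the difference, the more of the calls were lower in A/J. Among the 76 calls with a difference of 0.5 to 1 on the log2 scale, 42 were lower (55.3%), among the 139 calls of 1 to 2 there were 92 (66.2%), and among the 66 calls above 2 there were 56 (84.8%). Of these 66, 49 belonged to a co-expression module that the study selected on these arrays for its relation to strain. The values of the strains did not overlap for 179 of the 281 called probes and for 185 of all 9064 (2.04%). With the 11 arrays that detected at least 8000 probes (7 A/J and 4 C57BL/6J), 166 probes were called, 40 higher and 126 lower, and 150 of these were among the 281. A test on these fewer arrays also has less power, so a call lost there cannot be assigned to depth. With arrays weighted by their quality in the fit, both the number and the direction turned, with 2506 probes called, 1389 higher and 1117 lower. Every one of the 281 kept its sign within both chip sets. On the 3 chips that held both strains, with 1 amygdala array per strain each, 270 kept it throughout. The calls were made on these same arrays, so this agreement is no independent evidence.

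**Figure D1:**
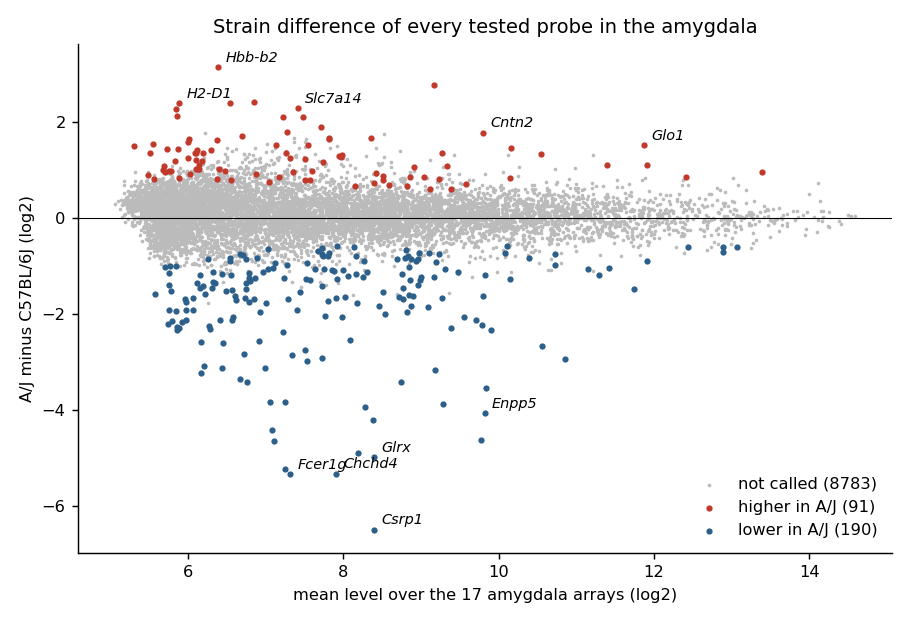
Each point is 1 of 9064 tested probes, with its mean normalized level over the 17 amygdala arrays (log2, horizontal) and its difference A/J minus C57BL/6J (log2, vertical). Red marks the 91 probes called higher in A/J and blue the 190 called lower, and the blue points reach down to -6.50 for Csrp1, which 1 of 8 A/J arrays detected. Points of probes that a strain did not detect on any array are fitted values and not measured sizes.

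Among probes lower in A/J, the difference was largest for Csrp1, which encodes a LIM domain protein bound to the actin cytoskeleton. Its log2 level was 4.58 to 5.53 (median 4.84) in A/J and 10.94 to 12.31 (median 11.32) in C57BL/6J. The groups lay far apart, and only 1 of 8 A/J arrays detected the probe, against 9 of 9 C57BL/6J arrays. The difference was -6.50 ± 0.20 (SE, limma adjusted p = 1.7e-14). On the log2 values processed by the authors, whose variance stabilization compresses low signals, it was -2.28. Of the 40 called probes named by rule, 36 were more than 1.5 times smaller on those values, all but Glo1, Scg5, Ptgds and Alad, and 7 did not pass there (Hbb-b2, Mlst8, Cntn2, Gal, C1qc, Gsr and Rpl29).

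Fcer1g, the common γ chain of Fc receptors in microglia and other myeloid cells, was detected on none of the 8 A/J arrays, where its level was 4.39 to 4.63 (median 4.47). In C57BL/6J it was 8.25 to 10.98 (median 10.16), detected on all 9 arrays. With the A/J level bounded by the lowest level detected on each array, Fcer1g was at least 19.3-fold lower in A/J (adjusted p = 2.7e-10). Like every probe undetected in A/J, that of Fcer1g passed the detection filter through C57BL/6J alone. The study marks the probes of Fcer1g and Tmem68 as carrying a base known to differ between the strains. Tmem68, a transmembrane protein gene, followed the same pattern, with 4.37 to 4.60 (median 4.44) in A/J and 9.10 to 10.37 (median 9.72) in C57BL/6J. It was at least 17.9-fold lower (adjusted p = 1.7e-14).

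Chchd4 and Tomm22 both serve protein import into mitochondria, Chchd4 as the oxidoreductase of the intermembrane space and Tomm22 as a receptor of the outer membrane translocase. Chchd4 was 4.72 to 5.40 (median 5.04) in A/J and 10.02 to 10.77 (median 10.50) in C57BL/6J, a difference of -5.34 ± 0.14 (SE, adjusted p = 1.8e-15). Tomm22 was 4.72 to 6.76 (median 5.59) in A/J and 9.84 to 11.03 (median 10.67) in C57BL/6J, a difference of -4.90 ± 0.25 (SE, adjusted p = 4.9e-11). Neither gene overlapped between strains, and A/J arrays detected Chchd4 in 2 of 8 cases and Tomm22 in 6 of 8. The other 18 of 20 tested import genes did not pass the test, beside 3.10% called over all probes. The median of all 20 was 0.05, against 0.07 over all tested probes. For Chchd4, the sequence table of the study lists no base that differs between the strains within the probe, while that of Tomm22 is marked as carrying one.

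Glrx, a glutaredoxin that reduces glutathionylated proteins, was 4.84 to 7.07 (median 5.73) in A/J and 10.30 to 11.28 (median 10.80) in C57BL/6J. The difference was -4.99 ± 0.26 (SE, adjusted p = 4.2e-11), and 5 of 8 A/J arrays detected it. Prdx2, a peroxiredoxin that removes hydrogen peroxide, had a pair of probes. The first was 4.56 to 5.10 (median 4.68) in A/J, detected on 0 of 8 arrays, and 8.70 to 9.35 (median 9.21) in C57BL/6J, which is at least 12.2-fold lower (adjusted p = 1.8e-15). The second was 6.34 to 7.10 (median 6.62) against 8.34 to 9.16 (median 8.75), a difference of -2.05 ± 0.15 (SE, adjusted p = 7.2e-09). Both probes of Prdx2 separated the strains completely, and the first is marked for a known base difference.

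Abhd16a, a lipase of phosphatidylserine encoded near the major histocompatibility complex (MHC), was 4.47 to 4.83 (median 4.63) in A/J and 8.71 to 9.73 (median 9.31) in C57BL/6J. No A/J array detected it, and it was at least 13.4-fold lower (adjusted p = 6.7e-14). Srp9, a subunit of the signal recognition particle, was 5.79 to 7.19 (median 5.95) against 10.16 to 10.82 (median 10.34), a difference of -4.22 ± 0.18 (SE, adjusted p = 1.7e-12). Enpp5, of the ectonucleotide pyrophosphatase/phosphodiesterase family, was 7.21 to 8.36 (median 7.55) against 11.35 to 12.02 (median 11.71), a difference of -4.08 ± 0.16 (SE, adjusted p = 9e-13). Srp9 and Enpp5 were detected on 7 and 8 of the 8 A/J arrays.

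All 15 probes of the study's sequencing list were called lower in A/J, with a median difference of -3.89. The study chose them on these arrays for their strain difference, so their direction is no independent evidence. Besides the genes above they included Gdi3, a GDP dissociation inhibitor, at 6.81 to 8.27 (median 7.28) in A/J and 11.55 to 12.11 (median 11.96) in C57BL/6J, a difference of -4.63 ± 0.18 (SE, adjusted p = 4e-13). Psmd8, a subunit of the proteasome cap, differed by -3.89 ± 0.14, and Ndufb10, a subunit of respiratory complex I, by -3.83 ± 0.18. Msmo1, a sterol oxidase of cholesterol synthesis, differed by -3.18 ± 0.15. Fcrls, an Fc receptor-like gene of microglia, was 5.90 to 6.78 (median 6.03) in A/J and 8.55 to 9.61 (median 9.05) in C57BL/6J, a difference of -2.92 ± 0.17 (SE, adjusted p = 3e-10). In each of these genes the values of the strains did not overlap. The remaining listed probes were Supt16 (-3.00), Uap1 (-2.76), Manbal (-2.23) and Thumpd1, which no A/J array detected and which was at least 9.9-fold lower. The part of the base differences in these signals was not tested.

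The study's co-expression module lists also mark probes that carry a base known to differ between the strains. Of these marked probes, 35 were tested in amygdala, 31 were lower, 1 was higher (Ncdn) and 3 were not called, against 2.10% called lower over all probes. The 31 lower ones all belonged to the module that the study selected on these arrays for its relation to strain, and they had a median difference of -2.55. The 44 probes of that module without a mark had a median of -2.03, with 36 lower and 8 higher. These 44 hold the 15 probes of the sequencing list, most of which were found to differ in A/J. A probe without a mark can thus still differ in sequence. Outside this module, 206 of the 281 calls were made. Without the probes marked or sequenced as different, 225 of 9019 probes were called, 84 higher and 141 lower. Only probes in the module lists can carry a mark, so those left in may still differ in sequence.

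**Figure D2:**
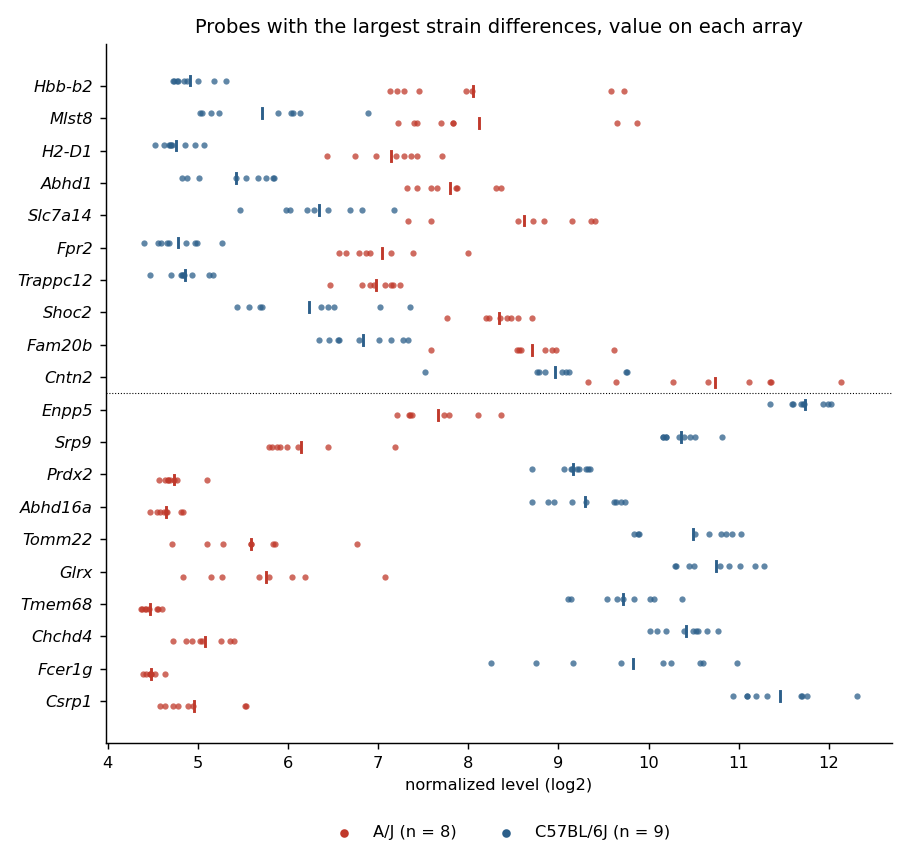
Normalized level (log2, horizontal) of the 10 probes with the largest positive and the 10 with the largest negative strain differences among called probes with 1 gene symbol. Each point is 1 array, red for A/J (n = 8) and blue for C57BL/6J (n = 9), and the bars are group means. Values overlap between strains for Cntn2 and for no other probe shown.

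Of the probes higher in A/J, the globin probe Hbb-b2 was one of 3 that no C57BL/6J array detected. It was 7.13 to 9.72 (median 7.71) in A/J and 4.72 to 5.31 (median 4.84) in C57BL/6J, where none of 9 arrays detected it, so that it was at least 4.74-fold higher (adjusted p = 1.8e-06). The α globin Hba-a1 was at -0.03 ± 0.30 and did not pass the test. The β globin genes are similar in sequence, and which of them the probe reads is uncertain. On the log2 values processed by the authors the difference was 0.34 and did not pass (adjusted p = 0.088).

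H2-D1, a classical MHC class I molecule, was 6.43 to 7.71 (median 7.24) in A/J and 4.52 to 5.07 (median 4.70) in C57BL/6J. No C57BL/6J array detected it, and it was at least 2.53-fold higher (adjusted p = 2e-09). H2-T22, a nonclassical class I gene, went the other way, with 4.45 to 4.75 (median 4.53) in A/J and 7.23 to 7.99 (median 7.67) in C57BL/6J, at least 4.3-fold lower (adjusted p = 9e-13). Class I genes are highly similar in sequence, so the share of each member in these signals is uncertain. The other 9 of 11 tested genes of antigen processing did not pass the test, beside 3.10% called over all probes. Among them was B2m, the invariant light chain of class I molecules, at -0.54 ± 0.23.

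Mlst8, a subunit of both mTOR complexes, was 7.22 to 9.87 (median 7.76) in A/J and 5.02 to 6.89 (median 5.89) in C57BL/6J on one probe, a difference of 2.40 ± 0.38 (SE, adjusted p = 0.00031). Its other probe was 9.22 to 9.77 (median 9.63) against 9.10 to 9.73 (median 9.57), a difference of 0.08 ± 0.12 (SE, adjusted p = 0.7). Only 1 probe of this gene thus showed the strain contrast, and on the values processed by the authors it was at 0.32 and did not pass (adjusted p = 0.15). Slc7a14, a member of the cationic amino acid transporter family, was 7.33 to 9.41 (median 8.78) against 5.46 to 7.18 (median 6.29), a difference of 2.28 ± 0.30 (SE, adjusted p = 2.8e-05). Its second probe was at 0.88 ± 0.33 and did not pass (adjusted p = 0.146).

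Abhd1, of the α/β hydrolase family, differed by 2.38 ± 0.19 (SE, adjusted p = 4.2e-08), with 7.32 to 8.37 (median 7.76) in A/J and 4.83 to 5.84 (median 5.53) in C57BL/6J. Fpr2, a formyl peptide receptor of myeloid cells, was 6.56 to 8.00 (median 6.89) against 4.41 to 5.27 (median 4.68), a difference of 2.26 ± 0.18 (SE, adjusted p = 4.9e-08), and 1 of 9 C57BL/6J arrays detected it. Trappc12, which belongs to a complex that tethers vesicles, was detected on all 8 A/J arrays and on no C57BL/6J array and was at least 2.25-fold higher. Shoc2, a scaffold of Ras signalling, differed by 2.10 ± 0.25, and Fam20b, a kinase of proteoglycan assembly, by 1.88 ± 0.22. These 5 genes showed no overlap between strains.

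Cntn2, an adhesion molecule of myelinated axons, was 9.33 to 12.13 (median 10.89) in A/J and 7.52 to 9.76 (median 9.04) in C57BL/6J. Its groups overlapped, and the difference was 1.77 ± 0.36 (SE, adjusted p = 0.00424). It no longer passed on the values processed by the authors (1.12, adjusted p = 0.014) or with the arrays of at least 8000 detected probes, at 1.46 (adjusted p = 0.092). Markers of oligodendrocytes and myelin were summarized beside it. None of their 16 tested genes passed (7 had an unadjusted p under 0.05), against 3.10% called over all probes, and 14 had a positive sign. Averaged over the list, the arrays ran from 9.81 to 10.65 in A/J (median 10.27) and from 9.24 to 10.63 in C57BL/6J (median 9.52). The median of the list was 0.47 on all arrays and 0.08 on those with at least 8000 detected probes. The part of myelin content in the difference of Cntn2 was not tested.

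Glo1 was called higher in A/J, at 12.48 to 12.97 (median 12.65) against 10.88 to 11.39 (median 11.24) in C57BL/6J. The ranges were narrow and did not overlap, with a difference of 1.51 ± 0.11 (SE, adjusted p = 1.6e-08), or 2.84-fold. A chromosome segment with Glo1 is duplicated in some inbred strains, and copies were not measured here. Btbd9, a gene near Glo1, was at 0.87 ± 0.49 (SE, adjusted p = 0.327). Gsr, which regenerates reduced glutathione, was 5.49 to 7.01 (median 6.30) against 4.76 to 5.89 (median 5.12), with overlapping groups and a difference of 0.98 ± 0.22 (SE, adjusted p = 0.0088). It passed by a small margin and was not called with median scaling, at 0.54 (adjusted p = 0.097). Of 27 tested glutathione and glyoxalase genes, Glo1 and Gsr were higher, Glrx was lower and 24 did not pass, with a median of -0.07. Over all probes 3.10% were called. Alad, the porphobilinogen synthase of heme synthesis, was 11.01 to 11.58 (median 11.22) against 9.43 to 10.32 (median 10.01), a difference of 1.32 ± 0.14 (SE, adjusted p = 1.4e-06). The other heme enzymes tested did not pass, among them Alas1 at 0.31 ± 0.10 and Urod at 0.23 ± 0.11.

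Of 12 microglial markers, 4 were called, all lower in A/J, against 2.10% called lower over all probes. The probes of Fcer1g and Fcrls, which made 2 of these calls, carry a base that differs in A/J. The other calls were the complement genes C1qb and C1qc, which encode chains of the C1q initiator of the classical pathway. C1qb was 7.37 to 9.18 (median 8.22) in A/J and 8.67 to 10.19 (median 9.71) in C57BL/6J, a difference of -1.41 ± 0.25 (SE, adjusted p = 0.00094). C1qc was 7.55 to 9.43 (median 8.23) against 8.60 to 10.28 (median 9.65), a difference of -1.23 ± 0.26 (SE, adjusted p = 0.00576). Both overlapped between strains, and C1qa, the third chain, was at -1.10 ± 0.39 (SE, adjusted p = 0.121). Neither C1qb nor C1qc passed with the fewer arrays of at least 8000 detected probes (-1.31, adjusted p = 0.039, and -1.04, adjusted p = 0.18). With 1 array left out at a time C1qc lost its call in 11 of 17 cases.

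The other microglial markers did not move one way. Tyrobp, the adaptor protein of several myeloid receptors, was at -0.69 ± 0.37 and Trem2 at -0.10 ± 0.29. Laptm5 was at 0.67 ± 0.16 (SE, adjusted p = 0.0139) and Cx3cr1, the fractalkine receptor, at 1.49 ± 0.56 (SE, adjusted p = 0.151), both above 0 but not called. The median of the 12 markers was -0.40 on all arrays and -0.09 on those with at least 8000 detected probes. Averaged over the markers, the arrays ran from 7.20 to 8.07 in A/J (median 7.44) and from 7.73 to 8.77 in C57BL/6J (median 8.40), overlapping between strains.

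Markers of neighbouring striatum ran in a common direction without a call. All 12 tested genes had a positive sign. At an unadjusted p under 0.05 limma reached 7 of them, against 1731 of 9064 over all probes. The median of the 12 was 0.86, against 0.07 over all probes. The widest was Pde10a, a phosphodiesterase of striatal projection neurons, at 1.21 ± 0.44 (SE, adjusted p = 0.137), and Drd2, the D2 dopamine receptor, was at 1.02 ± 0.40 (SE, adjusted p = 0.167). Arpp19 came nearest to the threshold at 0.78 ± 0.18 (SE, adjusted p = 0.0105). Averaged over the list, A/J arrays ran from 8.13 to 9.97 (median 8.85) and C57BL/6J arrays from 7.04 to 9.10 (median 8.34). The median difference was 0.66 within chip set 1, 1.28 within set 2 and 0.38 with the arrays of at least 8000 detected probes. Among 19 amygdala and subpallium markers 0 were called, against 3.10% over all probes. Of these 19, 4 had an unadjusted p under 0.05, and their median difference on all arrays was 0.13.

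The remaining lists of cells and tissues gave 1 call, a share to be read against 3.10% over all probes. Ptgds, a prostaglandin synthase rich in meninges and choroid plexus, was 9.88 to 11.20 (median 10.59) in A/J and 11.15 to 12.01 (median 11.59) in C57BL/6J, a difference of -1.06 ± 0.18 (SE, adjusted p = 0.00086). The other 6 of 7 markers of that tissue did not pass. No call was made among 12 astrocyte, 10 endothelial and mural, 11 cortex and hippocampus and 10 thalamus and hypothalamus markers, with medians of 0.14, 0.09, -0.14 and -0.10 and 3, 1, 4 and 3 genes at an unadjusted p under 0.05. A second probe of the astrocyte gene Cldn10, a claudin, was lower (-2.07 ± 0.27), while the brightest probe of this gene was at -0.01 ± 0.17.

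Of 19 neuropeptides and granins, 2 were called, against 3.10% over all probes. Gal, encoding galanin, was lower and Scg5, a chaperone of prohormone convertase, was higher. Gal was 4.45 to 7.68 (median 6.65) in A/J and 6.62 to 9.33 (median 8.29) in C57BL/6J, a difference of -1.92 ± 0.41 (SE, adjusted p = 0.00591), and its groups overlapped. With 1 array left out at a time it lost its call in 9 of 17 cases. Scg5 was 11.92 to 13.10 (median 12.48) against 10.98 to 12.03 (median 11.34), a difference of 1.09 ± 0.16 (SE, adjusted p = 0.00017), and these groups overlapped slightly. With the arrays of at least 8000 detected probes Gal did not pass (-1.39, adjusted p = 0.27), and Scg5 fell just short of the threshold (0.99, adjusted p = 0.01 after rounding). The list's median was -0.23, and its other members included Cort, a somatostatin-like peptide gene, at -1.78 ± 0.42 (SE, adjusted p = 0.0131), and Npy at -0.29 ± 0.28.

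No gene was called in the lists of GABA synthesis and transport (6 tested), GABA receptor subunits (5), neuropeptide receptors (11), glutamate receptors and vesicular transporters (11), the stress axis (5), monoamine and cannabinoid signalling (7), potassium channels (22), synaptic vesicle and SNARE genes (18), immediate early genes (7) or circadian clock genes (11). Over all probes 3.10% were called, and at that share lists of this size can lack a call. At an unadjusted p under 0.05 limma reached 29 of these 103 genes, against 1731 of 9064 over all probes. The medians of these lists ran from -0.19 for the stress axis to 0.46 for the clock genes. Gad1, which makes GABA, was at 0.50 ± 0.20 and Gabrd, the δ subunit of the GABA-A receptor, at 1.26 ± 0.45. Grm7, a metabotropic glutamate receptor, was at 1.33 ± 0.33 (SE, adjusted p = 0.0194), and Cckbr, the brain cholecystokinin receptor, at -0.59 ± 0.14 (SE, adjusted p = 0.0127). Crhbp, which binds corticotropin-releasing hormone, was at -0.70 ± 0.26 and Fkbp5, a regulator of the glucocorticoid receptor, at 0.07 ± 0.19.

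In the lists of cell maintenance 1 call each was made, a share to be read against 3.10% over all probes. Among 55 oxidative phosphorylation subunits only Ndufb10 was called (median of the list -0.04), among 31 proteasome subunits only Psmd8 (0.01), among 14 cholesterol synthesis genes only Msmo1 (0.02) and among 10 peroxiredoxins and thioredoxins only Prdx2 (-0.09). The called probes of Ndufb10, Psmd8 and Msmo1 carry a substitution, a deletion and an insertion in A/J, and the brighter called probe of Prdx2 is its second, without a mark. Of 41 cytosolic ribosomal proteins only Rpl29 passed, at 4.96 to 5.69 (median 5.11) against 5.28 to 7.90 (median 6.68), with overlapping groups and a difference of -1.68 ± 0.31 (SE, adjusted p = 0.00147). Its difference was -2.18 within chip set 1 and -0.32 within set 2, and ribosomal protein genes have many near-identical pseudogenes, so its source is uncertain. On the values processed by the authors it did not pass (-0.09, adjusted p = 0.043). None of 11 interferon-induced genes was called (3 at an unadjusted p under 0.05, median -0.33). The 3 tested genes of a list of loci with strain variants known between A/J and C57BL/6J were Glo1, H2-D1 and Hbb-b2.

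**Figure D3:**
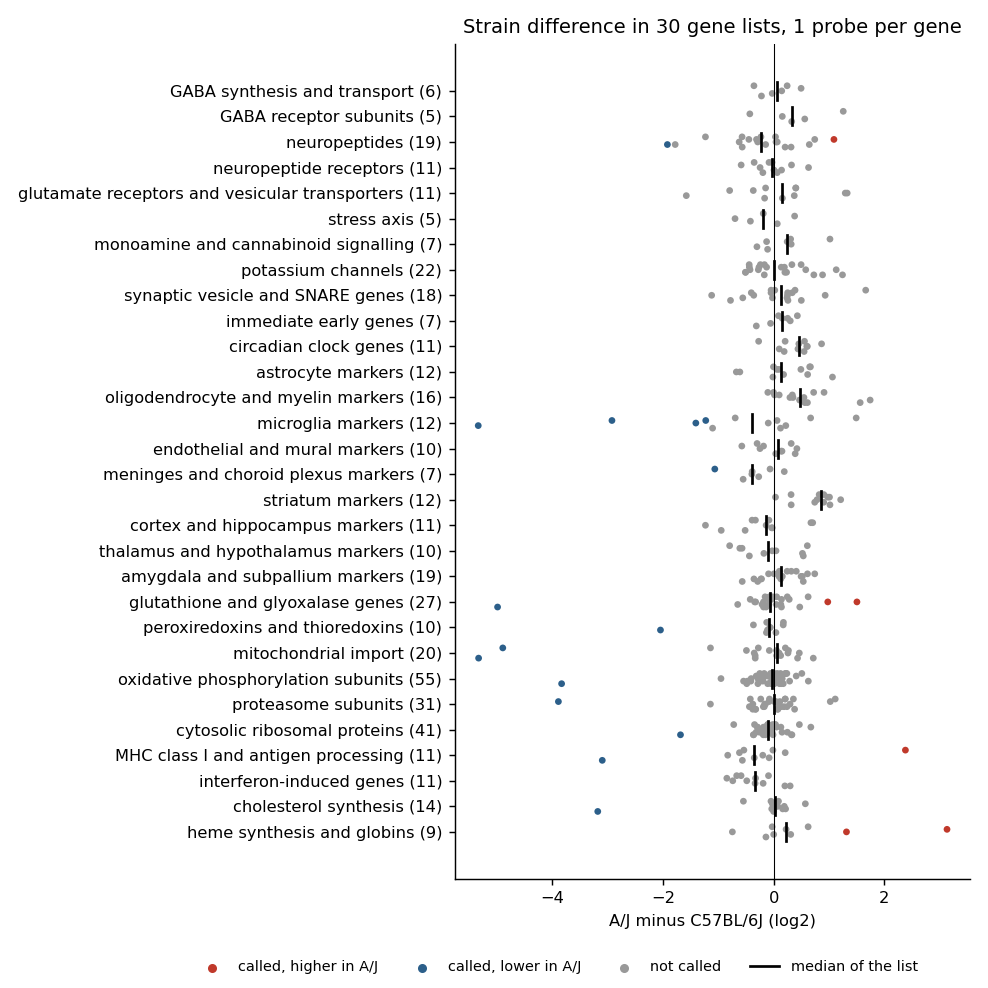
Difference A/J minus C57BL/6J (log2, horizontal) of each tested gene in 30 lists, with the number of genes in brackets. Red and blue points were called higher and lower in A/J, grey points were not called, and black bars mark list medians. Most lists centre near 0 with 0 to 2 coloured points, the 12 microglia markers hold 4 blue points, and the 12 striatum markers lie to the right with none called.

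Detection alone separated the strains for a small set of probes. A total of 15 probes were detected on all 9 C57BL/6J arrays and on no A/J array, and 3 showed the opposite pattern, namely H2-D1, Hbb-b2 and Trappc12. In hippocampus, 11 of the 15 and 2 of the 3 had this pattern too. The 15 included the chemokine probes Ccl21a and Ccl21b, which were singled out after their values were seen. Ccl21a was 4.54 to 5.21 (median 4.72) in A/J and 6.08 to 7.86 (median 6.83) in C57BL/6J, at least 2.63-fold lower. Ccl21b was 4.65 to 5.57 (median 5.02) against 6.52 to 8.02 (median 7.37), at least 3.44-fold lower. The Ccl21 genes are near-identical copies, and these probes cannot assign the difference to one of them. Apoa2, an apolipoprotein of high density lipoprotein, was at least 2.16-fold lower in A/J.

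Genes read by several probes show how far a call belongs to the gene and how far to the probe. Of 837 genes with at least 2 tested probes, 41 had a called probe. In 37 of these some probes were called and others were not, in 3 (Prdx2, Mrps12 and Trub1) all probes were called in the same direction, and in Gnb4 both were called in opposite directions. This split rests on the threshold alone, and an uncalled probe can have nearly the same estimate as the called one. Examples are Nnat (-1.55 ± 0.32 called, -1.44 ± 0.34 not) and Coq5 (0.71 ± 0.16 called, 0.86 ± 0.57 not), while other genes had wide gaps. The genes of this paragraph were named after their values were seen. Trub1, a pseudouridine synthase, had differences of -1.04 ± 0.11 and -0.99 ± 0.12, and Mrps12, a mitochondrial ribosomal protein, had -1.48 ± 0.24 and -1.19 ± 0.24. The estimates of a pair thus lay close to each other in Trub1 and in Mrps12.

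Gnb4, a β subunit of heterotrimeric G proteins, had one probe at 5.61 to 6.61 (median 6.03) in A/J and 7.04 to 7.89 (median 7.42) in C57BL/6J, a difference of -1.29 ± 0.17 (SE, adjusted p = 2.5e-05). The other was 6.17 to 7.32 (median 6.64) against 5.13 to 6.32 (median 5.64), a difference of 1.10 ± 0.21 (SE, adjusted p = 0.00221), with ranges that touched. The strains did not overlap on the first probe. Fgfr1op2 had one probe at -3.42 ± 0.18 and another at 0.12 ± 0.24, the widest gap of the 41 genes. Klc1, a kinesin light chain, had 3 probes at -2.68 ± 0.24, -1.05 ± 0.20 and 0.20 ± 0.36. Insig2, a regulator of sterol sensing, had one at -2.56 ± 0.24 and one at 0.36 ± 0.25. The uncalled probe of Supt16 was at -0.26 ± 0.15 beside the called one at -3.00 ± 0.19. The study lists this called probe under another gene, Rpgrip1, so the pair may not read the same gene. The low probes of Fgfr1op2 (-3.42), Klc1 (-2.68) and Cldn10 and the Mrps12 probe at -1.48 are marked for a known base difference. Only probes in the study's module lists can carry a mark. Of the other probes of this paragraph, only the called Supt16 probe is in them. For the rest, a missing mark says nothing about their sequence. Probes can also lie in different transcripts of a gene, and the part of either in these gaps was not tested.

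**Figure D4:**
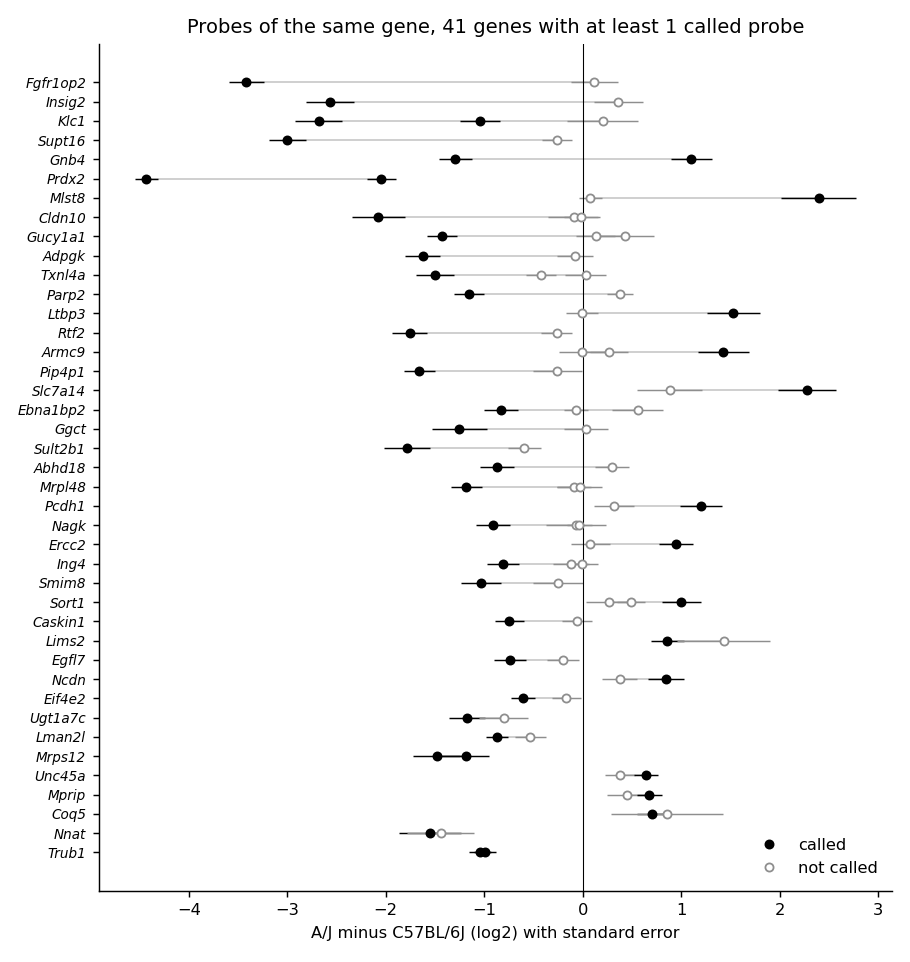
Difference A/J minus C57BL/6J (log2, horizontal, bars are standard errors) of every tested probe of the 41 genes with at least 2 tested probes and a called one, ordered by the gap between their probes. Filled points were called and open points were not, and most genes join a filled point away from 0 to an open point near 0. In the genes with the smallest gaps, called and uncalled points lie close together.

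Called genes lay on most chromosomes. By the RefSeq gene table for GRCm38.p6, which was used only for chromosome and order, 233 of 7100 placed genes were called. The share was 6.47% on chromosome 1 (24 of 371), 5.51% on chromosome 17 (19 of 345), which carries the MHC and Glo1, and 0 on chromosomes 10 (329 genes, 56 at an unadjusted p under 0.05) and X (221 genes, 24 at that level). Of the 233 called genes, 41 had a called gene next to them among the tested genes (17.6%), against 410 of 6867 uncalled genes (5.97%). They formed 20 runs, 10 with all members lower in A/J, 2 with all higher and the others mixed. Examples are C1qb and C1qc on chromosome 4, Ccl27a and Ccl21b on the same chromosome, and Apoa2 and Fcer1g on chromosome 1. Ndufb10 on chromosome 17 neighboured Rpl3l, which was higher in A/J. Genes next to each other are not independent, and the shares are given as a description.

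The strain contrast in hippocampus, taken on the same probes, was used to see where the amygdala differs. In hippocampus 262 of 9064 probes were called (2.89%), and 180 probes were called in both regions, all in the same direction. These were 64.1% of the amygdala calls and 68.7% of the hippocampus calls. Of the 101 probes called in amygdala and not in hippocampus, 96 had the same sign there. Since some arrays of the regions may come from the same mice, this overlap is no independent repeat. Csrp1 was at -6.50 in amygdala and -6.55 ± 0.20 in hippocampus, Glo1 at 1.51 and 1.22 ± 0.12, and Fpr2 at 2.26 and 0.97 ± 0.18.

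The test of the difference between regions, the interaction of strain and region over all 35 arrays, called 4 of 9064 probes (0.0441%), and none of the 281 amygdala calls was among them. At an unadjusted p under 0.05 it reached 731 probes. For Cntn2 the interaction was 1.44 (adjusted p = 0.233) and for Fpr2 1.19 (adjusted p = 0.0565), so that a weaker strain difference in hippocampus was not shown for either.

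The 4 probes called for the interaction were Krt9, Fgf10, Lypd1 and Zfhx3, none of which passed the strain test in amygdala. On the values processed by the authors none of the 4 passed over the 9064 probes tested here (adjusted p = 0.0107 to 0.0842). Krt9 and Fgf10, both at 0.0107, lay just above the threshold of 0.01. The study itself, with limma over its own larger set of probes, listed Krt9, Fgf10 and Lypd1 among the few genes with an interaction. With median scaling only Lypd1 passed (-1.52, adjusted p = 1.1e-05). Zfhx3, a homeobox transcription factor, was 7.17 to 9.36 (median 8.39) in A/J amygdala and 6.20 to 8.25 (median 7.27) in C57BL/6J amygdala, a difference of 1.07 ± 0.33. In hippocampus it was 5.36 to 7.01 (median 5.71) against 6.31 to 8.05 (median 7.30), a difference of -1.23 ± 0.25, and the interaction was 2.32 ± 0.42 (SE, adjusted p = 0.00905). Its second probe had an interaction of 1.41 ± 0.45 that did not pass (adjusted p = 0.304). Krt9, a keratin gene, was at 0.46 ± 0.17 in amygdala and -1.08 ± 0.16 in hippocampus, with an interaction of 1.55 ± 0.23 (SE, adjusted p = 0.00082).

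Fgf10, a fibroblast growth factor, was 5.21 to 6.18 (median 5.78) in A/J amygdala and 5.80 to 7.39 (median 6.56) in C57BL/6J amygdala, a difference of -0.80 ± 0.22. In hippocampus it was 8.65 to 9.58 (median 9.08) against 7.67 to 8.71 (median 7.85), a difference of 1.04 ± 0.18, and the interaction was -1.81 ± 0.28 (SE, adjusted p = 0.00097). Lypd1, a membrane-anchored modulator of nicotinic receptors, was higher in A/J in hippocampus by 1.96 ± 0.14 and had a difference of 0.61 ± 0.18 in amygdala (interaction -1.31 ± 0.22, SE, adjusted p = 0.00298). For Lypd1 the sign was shared by the regions, while for the other 3 genes it was opposite.

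**Figure D5:**
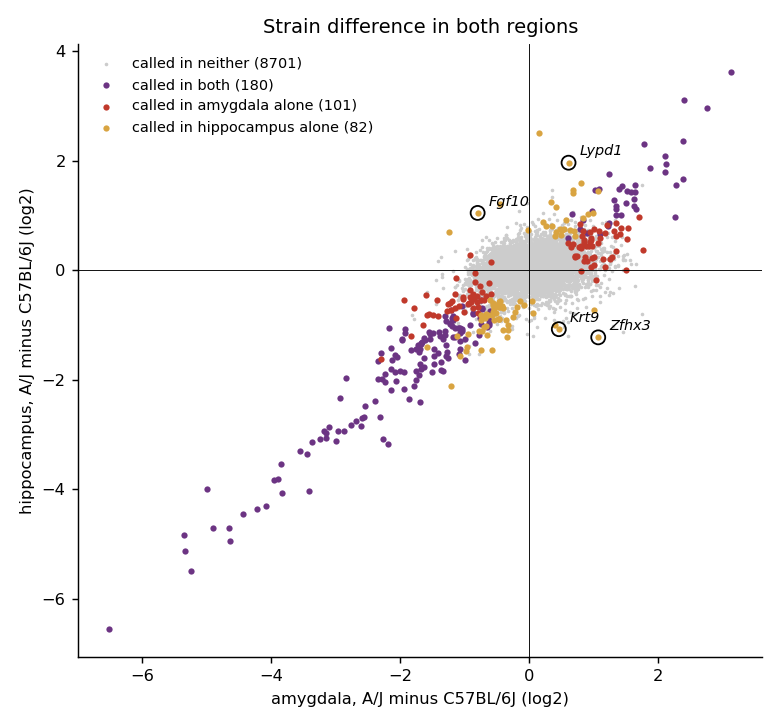
Strain difference (A/J minus C57BL/6J, log2) of 9064 probes in amygdala (horizontal) and hippocampus (vertical), each region normalized on its own. Purple points were called in both regions (180), red in amygdala and not hippocampus (101), and yellow in hippocampus and not amygdala (82). The purple points lie in the quadrants of equal sign, and circles mark the 4 probes called for the interaction.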

How the data were processed

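RNA from amygdala and hippocampus punches was hybridized to Illumina MouseRef-8 bead arrays. The authors extracted the signal intensities with BeadStudio, using the negative control beads as background, and deposited them with a detection score (1 minus the detection p-value) per probe. The deposited processed table holds log2 values that the authors made with Lumi (variance stabilization and robust spline normalization), and it was used as an alternative. Decimal commas were read as points. Of the amygdala signals, 30.78% were at or below 0. The 17 amygdala arrays were normalized here with neqc of limma 3.58.1 (R 4.3.3, offset 16), and the strains were compared with lmFit and eBayes over probes detected on at least 8 arrays, with Benjamini-Hochberg adjustment and a threshold of 0.01. The interaction was fitted on 35 arrays normalized together. Level means normalized log2 signal, and difference means A/J minus C57BL/6J with its standard error. A probe undetected on every array of a strain has a fold bounded from below by the lowest level detected on each array. The number of arrays and the signal over background limit the precision, and no 2 arrays held identical values.

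Platform annotation gave 1 gene symbol for 20984 probes, several for 1 and none for 3635. Lists used the tested probe with the highest mean of each gene. Named were the 10 largest called differences in each direction among probes with 1 gene symbol, and up to 4 called members per list. The probes listed for sequencing, the interaction calls and other probes of these genes were named too. Any other gene in the text was chosen after its values were seen. Members and lists were chosen with earlier results of these data known. The fit was tested on simulated data. Alternatives in scaling, background, filters, chip blocks, array weights and left-out arrays are described in the closing section, and the use of arrays with at least 8000 detected probes was added after seeing the data.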

Additional observations from a re-analysis of the deposited data

Results flagged for a closer look

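Among the 96 sets of values of named probes in 1 strain (48 probes), 6 had 1 array far from the others, and chance flags about 1 in 20 such groups. Cntn2 was 7.52 on C57BL/6J array 6, with the next value at 8.76. The first Prdx2 probe was 5.1 on A/J array 4, next to 4.77, and 8.7 on C57BL/6J array 3, next to 9.06. Srp9 was 7.19 on A/J array 5, next to 6.44, and Rpl29 was 5.69 on A/J array 3, next to 5.22. Supt16 was 7.12 on A/J array 8, next to 6.08. Of these probes, Cntn2 lost its call when an array was left out, in 3 of 17 cases.

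The strain difference itself differed between amygdala and hippocampus for 4 probes by the interaction test of limma. The interaction, amygdala minus hippocampus, was 1.55 for Krt9, -1.81 for Fgf10, -1.31 for Lypd1 and 2.32 for Zfhx3. On the values processed by the authors none of them passed (limma, 796 probes at an unadjusted p under 0.05), and with median scaling Lypd1 alone did. The study listed Krt9, Fgf10 and Lypd1 among its own interaction genes, tested over a larger set of probes.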

How the results depend on the processing

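The count of 281 called probes (91 higher, 190 lower) moved by over 1.5 times under 5 alternatives. It was 156 (46 higher, 110 lower) with probes detected on all arrays, of which 5110 were tested. It was 118 (26 and 92) within chip set 1 and 49 (4 and 45) within set 2, which hold fewer arrays. With array weights it was 2506 (1389 and 1117), and the cause was not tested. With the arrays that detected at least 8000 probes, which are also fewer and were chosen as an alternative after seeing the data, it was 166 (40 and 126). In a fit of all 35 arrays, 140 probes were higher and 232 lower. With 1 array left out at a time it was 237 to 290 (69 to 99 higher, 164 to 196 lower). The remaining alternatives gave 225 to 362. Median scaling moved the median of all differences from 0.067 to -0.052, gave 63 higher and 197 lower, and turned the sign of 9 list medians near 0.

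The 4 interaction calls became 0 with the values processed by the authors (limma, 796 at an unadjusted p under 0.05), 1 with median scaling and 8 with probes detected on at least 1 array. No called named probe changed sign, and the uncalled Mlst8 probe did within chip set 2 (-0.01). With 1 array left out, the adjusted p was 0.00097 to 0.012 for Cntn2 (lost without A/J array 2, 4 or 6), 0.0013 to 0.016 for Gal, 0.00095 to 0.016 for C1qc (lost in 11 of 17 cases) and 0.0026 to 0.022 for Gsr (13 of 17). No paired analysis was possible because the labels give no replicate numbers and do not tie arrays to shared animals.

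Signals near background limit the size of the largest differences, since 26 called probes were undetected in 1 strain. These probes passed the detection filter through the other strain alone, so their p-values are not independent of it.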
